A study of Mus musculus with 12 samples.

Results

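Hypoxia-inducible factors (HIFs) and the enzymes that sense oxygen for them were followed through 10 genes in inguinal white adipose tissue (iWAT), the subcutaneous depot in which beige adipocytes form upon cold. The genes were taken by symbol from a table of read counts for 23420 genes, namely Epas1, Hif1a and Hif3a for the α subunits, Arnt and Arnt2 for the β subunits, Egln1, Egln2 and Egln3 for the prolyl hydroxylases, Vhl, and Hif1an. All 10 were found, and all 10 were among the 15306 genes that passed the filter on low counts. RNA came from 12 male mice at 10 weeks of age, on a C57BL/6 background, divided over 4 groups of 3 mice. Floxed Hif2a alleles without Cre defined the WT mice. HIF2α AKO mice carried the same floxed alleles together with Adiponectin-Cre, so the floxed alleles were common to all groups, and an effect of Cre cannot be told apart from an effect of the deletion. Mice of each genotype were housed at 30 °C for 1 week, referred to as thermoneutrality (TN), or kept at 4 to 6 °C for 3 days (cold). Adiponectin-Cre acts in adipocytes, whereas the RNA came from the whole depot with its vessels, immune cells and progenitors.

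A HIF is a dimer of an oxygen-labile α subunit and a stable β subunit. When oxygen is present, the EGLN enzymes, also called PHDs, hydroxylate prolines of the α subunit, and VHL, the recognition subunit of a ubiquitin ligase, then marks it for degradation. HIF1AN, also called FIH, hydroxylates an asparagine and so blocks the contact with the coactivators encoded by Ep300 and Crebbp. Because this control acts on the protein, a transcript level gives no measure of HIF activity. Egln1 and Egln3 are textbook targets of HIFs themselves, and Epas1, which encodes HIF2α, is best known for its expression in endothelium.

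The libraries held between 22368316 and 35204631 counts on genes. Levels are given as CPM, which are counts scaled to the library total and TMM factors. A gene at 0 could still hold 3 counts, or between 0.0764 and 0.145 CPM depending on the library, with counting error only. Adipoq, the adipocyte gene whose promoter drives Cre, lay between 899 and 2467 CPM in all libraries. Ucp1, the uncoupling protein of thermogenic adipocytes, lay between 0.204 and 3.85 CPM at TN and between 2171 and 5897 CPM in cold. Adipocyte RNA was thus present in all libraries, and Ucp1 separated the labelled temperatures. The summed level of 12 skeletal muscle markers was 1751 CPM in cold HIF2α AKO replicate 1 and 2019 CPM in TN HIF2α AKO replicate 2, against 43.8 to 134 CPM in the other 10 libraries, and TN WT replicate 3 held 264 CPM of 7 epithelial markers against 3.58 to 11.5 CPM elsewhere. Without TN WT replicate 3, the log2 fold change for cold against TN in WT was 0.95 for Epas1, 0.21 for Hif1a and -0.11 for Vhl, and that of Epas1 for HIF2α AKO against WT at TN was 0.096. Values without the muscle-rich libraries are given beside the results that they change most.

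In the promoters of the members, the letters shared by textbook HIF response elements were searched as ACGTG and GCGTG on both strands, in the 250 bases before each start site of the RefSeq promoter table (GRCm38.p6). Windows were found for 9 members, all but Epas1, with a pair of start sites for Egln2. ACGTG was present in 4 members, Hif1a, Egln1, Egln2 and Egln3, and in 16.6% of the 32851 windows of all genes. Either motif was present in 6 members, now with Hif3a and Arnt. Counted by window, either was present in 7 of the 10 windows of members and in 38.6% of all windows (GCGTG, with or without ACGTG, in 28.2%). Neither was found in the windows of Arnt2, Vhl and Hif1an. The stretches around ACGTG are shown for the 4 genes that hold it. These were called higher in cold over both genotypes in the comparisons below, Hif1a without a call in WT alone. Epas1, which also rose, could not be searched, and a link between motif and rise was not tested. They are written 5′ to 3′ on the strand of the gene, with ACGTG, or CACGTG where the motif reads on both strands, in capitals. The stretches of Hif1a lie on the plus strand at chr12:73907722-73907747 and chr12:73907787-73907811, starting 145 and 80 bases before the start site. The stretches of the other genes lie on the minus strand. That of Egln1 is at chr8:124949308-124949332, starting 78 bases before its start site, and it spans the gene start of the GENCODE annotation. That of Egln2 is at chr7:27166836-27166860 and starts 58 bases before, and that of Egln3 is at chr12:54204089-54204113 and starts 239 bases before. A match describes letters, and no binding was measured.
Hif1a, first stretch: cacagacaagCACGTGagcggggcag
Hif1a, second stretch: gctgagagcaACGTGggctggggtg
Egln1: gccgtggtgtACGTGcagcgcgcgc
Egln2: cctcctgtcaACGTGcggttcgcgc
Egln3: tgcatctcagACGTGagatccaggt

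To see which members prevail in iWAT, levels were divided by the length of each gene's merged exons and expressed as CPM per kb. Epas1 was the most abundant of the 10 in all groups, at 64.4 ± 13.7 CPM per kb in TN WT and 112 ± 18.0 in cold WT (mean ± SD, n = 3). In TN WT it was followed by Egln2 (32.1 ± 1.11), Egln1 (24.5 ± 4.43), Hif1a (18.3 ± 2.35), Vhl (12.3 ± 1.45), Arnt (11.4 ± 0.318), Hif1an (10.2 ± 0.108), Egln3 (1.93 ± 0.336), Arnt2 (0.765 ± 0.160) and Hif3a (0.387 ± 0.0544), each in CPM per kb (SD, n = 3). The ranges of Vhl and Arnt overlapped, and those of the other neighbours in this order did not. In TN HIF2α AKO the order was the same, with overlaps between Vhl and Arnt, Arnt and Hif1an, and Arnt2 and Hif3a. In cold, Egln1 and Egln2 no longer separated in either genotype, at 43.7 ± 0.625 and 45.9 ± 5.13 CPM per kb in cold WT and at 58.1 ± 13.6 and 45.3 ± 2.72 in cold HIF2α AKO. Also in cold, Vhl and Hif1an overlapped in both genotypes, as did Arnt2 and Hif3a.

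Within the α subunits, Epas1 made up 77.0 ± 5.72% (SD, n = 3) of the summed level per kb in TN WT, 76.2 ± 2.40% in TN HIF2α AKO, 82.7 ± 2.17% in cold WT and 84.9 ± 1.38% in cold HIF2α AKO. The share of Hif1a was 22.6 ± 5.70% in TN WT, 23.2 ± 2.31% in TN HIF2α AKO, 16.8 ± 2.42% in cold WT and 14.9 ± 1.35% in cold HIF2α AKO. Hif3a, whose products include inhibitors of the other α subunits, did not exceed 0.925% in any library. The level of Epas1 over that of Hif1a was 3.61 ± 1.21 (SD, n = 3) in TN WT and 4.98 ± 0.790 in cold WT, and 3.31 ± 0.417 in TN HIF2α AKO and 5.71 ± 0.630 in cold HIF2α AKO. Among the hydroxylases, the share of Egln1 was 41.7 ± 4.25% in TN WT, 38.6 ± 3.68% in TN HIF2α AKO, 46.4 ± 2.39% in cold WT and 53.5 ± 5.86% in cold HIF2α AKO. Egln3 stayed between 3.00 and 7.28% in all libraries. These shares are descriptions without a test, and they depend on the exon length assigned to each gene.

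**Figure D1:**
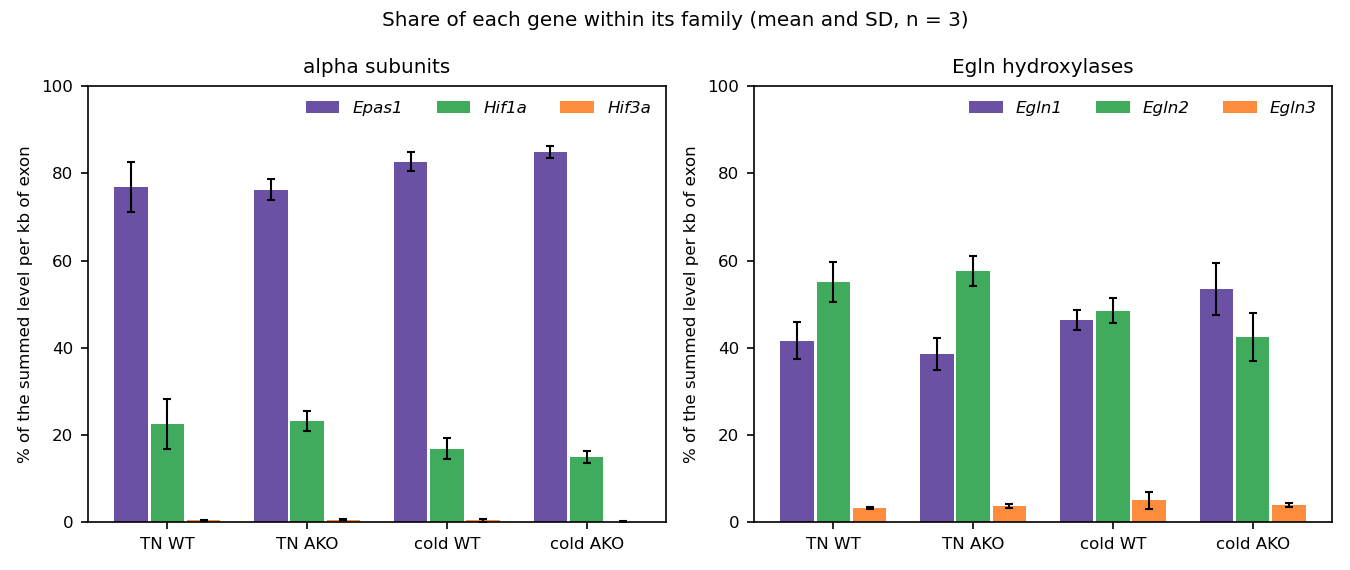
Share of each gene in the summed level per kb of exon of its family, for the α subunits (left) and the Egln hydroxylases (right), with bars for the mean and error bars for the SD of 3 libraries in each group. Epas1 holds between 76.2 and 84.9% of the α subunit sum on average, and Egln1 and Egln2 hold nearly all of the hydroxylase sum.

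Upon cold exposure of WT mice, transcripts of Epas1 and of all 3 prolyl hydroxylases rose in iWAT. Egln3 rose most, by 1.32 on the log2 scale, followed by Egln1 (0.83), Epas1 (0.80) and Egln2 (0.52). Of the 10 members, 4 were called at an adjusted p under 0.05 by edgeR, all higher in cold, where 21.3% of all tested genes were called and 15.6% were called higher. At an unadjusted p under 0.05, 7 members passed against 38.9% of all genes, with Hif1a higher and Arnt2 and Vhl lower in cold. Arnt2 (-0.95 on the log2 scale) was called lower with DESeq2, voom quality weights and total counts only, and Vhl (-0.21) with upper-quartile factors and total counts only.

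Epas1 (chromosome 17, 86753700 to 86833410, GRCm38) was at 373, 278 and 430.0 CPM in the 3 TN WT libraries and at 576, 562 and 742.8 CPM in the 3 cold WT libraries. All cold values were above all TN values. The log2 fold change was 0.80 (standard error, SE, 0.20, edgeR adjusted p = 0.0178). The call was lost without TN WT replicate 2 (0.63), without cold WT replicate 3 (0.66) and without TN WT replicate 1 (0.83), and with edgeR, but not DESeq2, on the 6 WT libraries alone. Without TN WT replicate 2, only 2 of the 10 members stayed called in WT, Egln2 and Egln3. Over all genes, 1381 were then called, against 3259 with all libraries.

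Egln1 encodes PHD2, regarded as the main oxygen sensor among the prolyl hydroxylases (chromosome 8, 124908587 to 124949324). Its values were 88.4, 72.2 and 104 CPM in TN WT and 158, 155 and 159 CPM in cold WT, without overlap. The log2 fold change was 0.83 (SE 0.19, edgeR adjusted p = 0.0133), and without TN WT replicate 2 it was 0.69 and no longer called. Egln2, which encodes PHD1 (chromosome 7, 27158658 to 27166802), was at 93.5, 88.2 and 88.05 CPM in TN WT and at 145, 117 and 123 CPM in cold WT. These groups were also apart, with a log2 fold change of 0.52 (SE 0.10, edgeR adjusted p = 0.00462), which was 0.22 and not called with total counts only. Egln2 shares 11 bases of exon with Cyp2t4 on the opposite strand, and whether reads were counted by strand is not given in the sources used here.

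Egln3, which encodes PHD3 (chromosome 12, 54178981 to 54203860), was at 5.14, 4.25 and 6.04 CPM in TN WT and at 11.3, 8.67 and 18.5 CPM in cold WT. All cold values were above all TN values, and the highest belonged to cold WT replicate 3. The log2 fold change was 1.32 (SE 0.26, edgeR adjusted p = 0.00604), and 0.96 without that library, still called. Egln3 therefore had the largest fold change and the lowest level of the hydroxylases.

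The other α subunits were not called in WT. Hif1a (chromosome 12, 73901375 to 73947530) was at 116, 116 and 92.1 CPM in TN WT and at 108, 145 and 149 CPM in cold WT, where cold WT replicate 1 lay within the TN range. Its log2 fold change was 0.31 (SE 0.13, edgeR adjusted p = 0.107), and 0.44 and called without that library. Hif3a (chromosome 7, 17031507 to 17062427) was at 2.90, 2.19 and 2.70 CPM in TN WT and at 7.61, 2.14 and 3.34 CPM in cold WT. The groups overlapped, and a single library, cold WT replicate 1, held the high value. Its log2 fold change was 0.74 (SE 0.37, edgeR adjusted p = 0.158).

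In HIF2α AKO mice, 5 members rose in cold, namely Epas1, Egln1, Egln3, Hif1a and Egln2. Epas1 and Egln1 rose most, by 1.25 and 1.20 on the log2 scale. The background was 27% of genes called and 15.6% called higher in this comparison (edgeR, adjusted p under 0.05). The 5 calls differed in how they depended on single libraries. With any of the 6 HIF2α AKO libraries left out, between 2 and 3 members remained called, Epas1 and Egln1 among them each time, and without both muscle-rich libraries these 2 alone were called. Calls over all genes changed as well. They numbered 4138 with all libraries, 1613 to 4155 with any of these libraries left out, and 1514 without both muscle-rich libraries.

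Epas1 was at 289, 394 and 360.1 CPM in TN HIF2α AKO and at 986, 743.2 and 749 CPM in cold HIF2α AKO. The groups were far apart, with a log2 fold change of 1.25 (SE 0.20, edgeR adjusted p = 0.00176) and of 1.20 without both muscle-rich libraries. Egln1 was at 71.4, 109 and 91.5 CPM in TN HIF2α AKO and at 264, 193 and 169 CPM in cold HIF2α AKO. Here too all cold values were higher, with a log2 fold change of 1.20 (SE 0.19, edgeR adjusted p = 0.00181) and of 1.15 without both muscle-rich libraries.

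Hif1a was at 107, 113 and 111 CPM in TN HIF2α AKO and at 162, 151 and 143 CPM in cold HIF2α AKO. The groups did not overlap, and the log2 fold change was 0.46 (SE 0.13, edgeR adjusted p = 0.0271). It was 0.31 in WT, and the difference between the genotypes was not called. Egln3 was at 6.51, 7.28 and 5.87 CPM at TN and at 12.6, 9.37 and 12.2 CPM in cold, with a log2 fold change of 0.80 (SE 0.25, edgeR adjusted p = 0.0404). Egln2 was at 97.6, 109 and 105 CPM at TN and at 129, 119 and 133 CPM in cold, with a log2 fold change of 0.29 (SE 0.10, edgeR adjusted p = 0.0443). Egln2 and Egln3 were also apart between the groups. The calls of Hif1a, Egln2 and Egln3 were lost without both muscle-rich libraries, at log2 fold changes of 0.43, 0.32 and 0.80. They were also lost with total counts only, at 0.19, 0.024 and 0.53. With upper-quartile factors, those of Hif1a (0.37) and Egln2 (0.20) were lost. Hif3a, at 3.00 to 3.31 CPM at TN and 1.94 to 2.56 CPM in cold, was lower in every cold library but not called (log2 fold change -0.55, standard error 0.38, adjusted p = 0.279, edgeR).

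**Figure D2:**
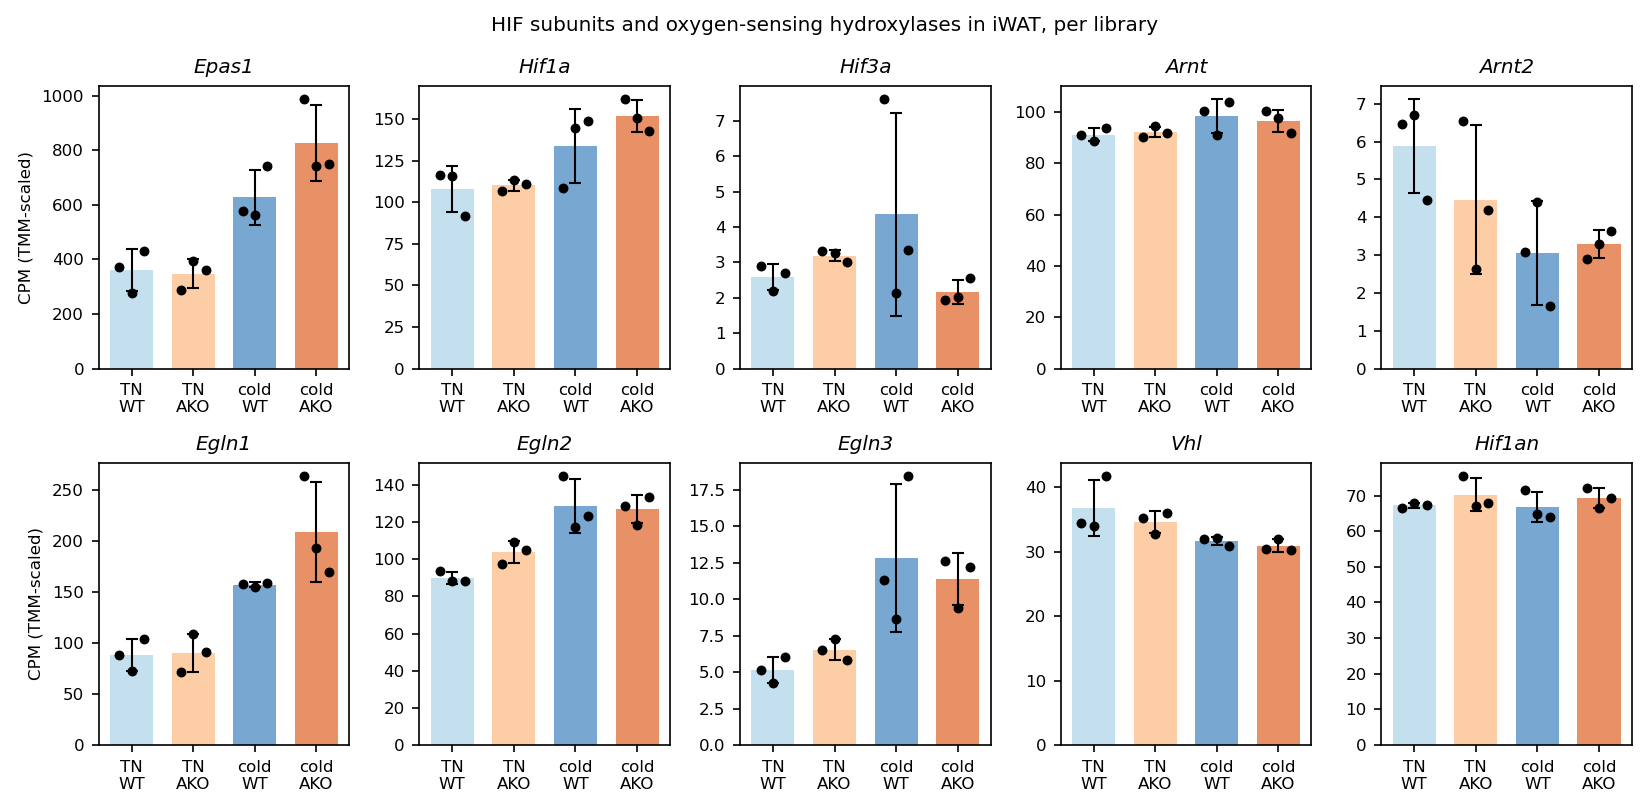
TMM-scaled CPM of the 10 genes in each of the 12 libraries (points), with bars for the group mean and error bars for the SD of 3 libraries, on axes that start at 0. Epas1 and Egln1 stand higher in all cold libraries than in all TN libraries, Arnt and Hif1an lie between 88.5 and 104 and between 63.9 and 75.5 CPM, and the mean of Hif3a in cold WT rests on a library at 7.61 CPM.

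With both genotypes combined, 7 members were called between cold and TN, where 48.8% of all tested genes were called (edgeR, adjusted p under 0.05). Epas1, Hif1a, Egln1, Egln2 and Egln3 rose, 5 of 10 against 24.8% of all genes called higher. Arnt2 and Vhl fell, 2 of 10 against 24% of all genes called lower. The cold values of Epas1, Egln1, Egln2 and Egln3 exceeded the TN values in both genotypes without overlap. The median log2 fold change of all genes was -0.05 with TMM factors and -0.33 with total counts only, so that a change is best read against that median. The log2 fold change of Epas1 was 1.02 (SE 0.14, edgeR adjusted p = 0.000294) and that of Egln1 was 1.02 (SE 0.14, edgeR adjusted p = 0.000253). Egln3 was at 1.06 (SE 0.18, edgeR adjusted p = 0.00109), the largest value, and lower values were seen for Egln2 at 0.40 (SE 0.07, edgeR adjusted p = 0.000959) and Hif1a at 0.39 (SE 0.09, edgeR adjusted p = 0.00687). With total counts only, Hif1a was at 0.10 and Egln2 at 0.12 and neither was called, whereas Epas1, Egln1 and Egln3 were called under every alternative tried for both genotypes together.

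Arnt and Hif1an had small log2 fold changes whose direction or call depended on the scaling. Arnt, the usual partner of HIF1α and HIF2α (chromosome 3, 95434388 to 95497240), lay between 88.5 and 104 CPM in all 12 libraries. Its log2 fold change was 0.09 (95% interval -0.03 to 0.21, adjusted p = 0.186, edgeR), and with total counts only it turned to -0.20 and was called. Hif1an (chromosome 19, 44562850 to 44576274) lay between 63.9 and 75.5 CPM in all libraries. Its log2 fold change was -0.02 (95% interval -0.14 to 0.11, adjusted p = 0.834, edgeR), and with total counts only it was called at -0.30. Against the median of all genes, Arnt lay above it and Hif1an near it under both scalings.

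Vhl (chromosome 6, 113623959 to 113631633) was at 34.4, 34.1 and 41.8 CPM in TN WT, at 35.3, 32.7 and 35.9 CPM in TN HIF2α AKO, at 32.0, 32.1 and 30.9 CPM in cold WT and at 30.4, 32.0 and 30.2 CPM in cold HIF2α AKO. All cold libraries were below all TN libraries, the nearest by less than 1 CPM. Over both genotypes, the log2 fold change was -0.19 (SE 0.06, edgeR adjusted p = 0.0287). Without TN WT replicate 3, the library with epithelial markers, it was -0.14, and without both muscle-rich libraries -0.20, and neither was called. Leaving out TN HIF2α AKO replicate 1 or 3, cold WT replicate 3 or cold HIF2α AKO replicate 1 or 3 also ended the call. In HIF2α AKO alone, Vhl was at -0.16 (edgeR adjusted p = 0.176). There it was called lower only with upper-quartile factors (-0.26) and total counts only (-0.43).

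Arnt2, a β subunit best known from the nervous system (chromosome 7, 84246278 to 84410176), was at 6.47, 6.72 and 4.47 CPM in TN WT, at 6.54, 2.64 and 4.21 CPM in TN HIF2α AKO, at 3.09, 4.40 and 1.65 CPM in cold WT and at 2.91, 3.30 and 3.65 CPM in cold HIF2α AKO. The WT groups were just apart and the HIF2α AKO groups overlapped. Over both genotypes, the log2 fold change was -0.69 (SE 0.26, edgeR adjusted p = 0.0476), between 41 and 254 counts per library. The call was lost without 9 of the 12 libraries, each in turn, all but TN WT replicate 3, TN HIF2α AKO replicate 2 and cold WT replicate 2, as well as with limma voom. In WT alone, the log2 fold change of -0.95 had an adjusted p of 0.0861 (edgeR).

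**Figure D3:**
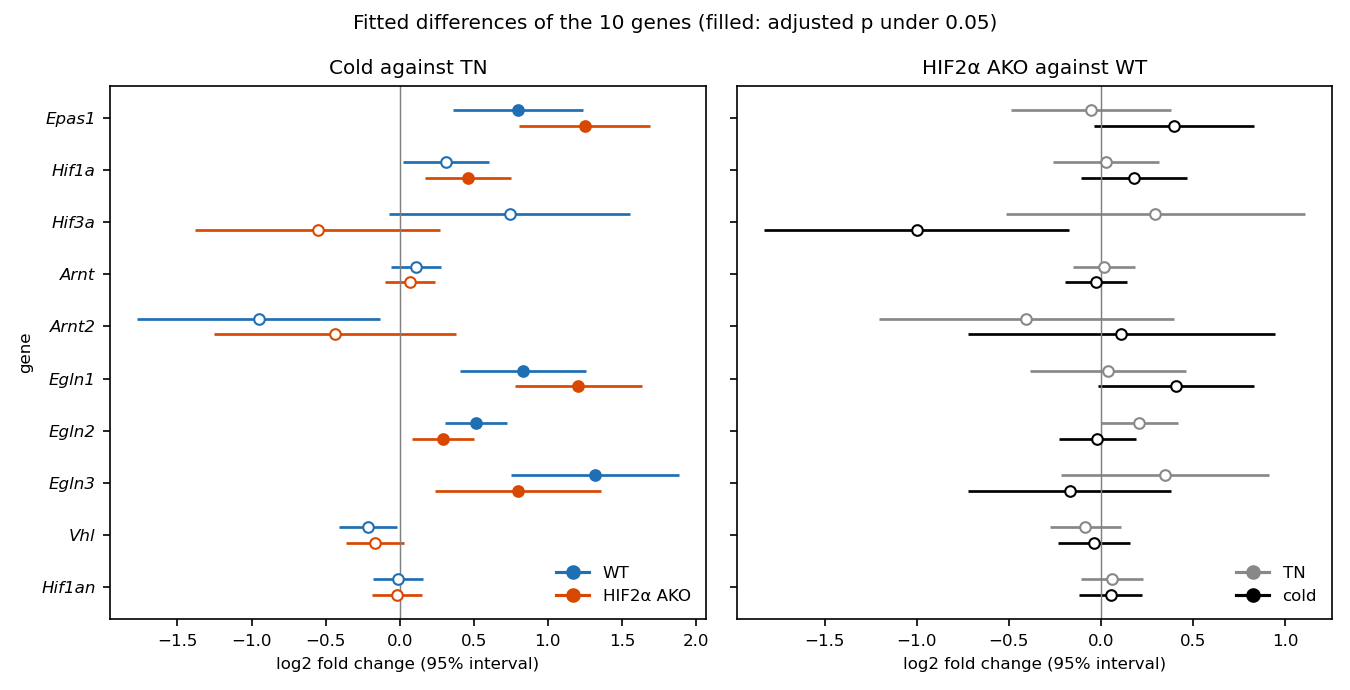
Fitted log2 fold changes of the 10 genes with 95% intervals, for cold against TN in each genotype (left) and for HIF2α AKO against WT at each temperature (right), where filled points have an adjusted p under 0.05 by edgeR. Filled points appear only on the left, for 4 genes in WT and 5 in HIF2α AKO, and the widest intervals belong to Hif3a and Arnt2.

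Genotype was compared next, beginning with Epas1, the targeted gene. Libraries labelled HIF2α AKO did not hold less Epas1, at 348 ± 53.8 CPM (SD, n = 3) against 360.2 ± 76.8 in TN WT, and at 826 ± 139 against 627 ± 101 in cold WT. The TN groups overlapped. The 3 cold HIF2α AKO libraries were above the 3 cold WT libraries, with the nearest pair at 743.2 and 742.8 CPM. The log2 fold change was -0.05 at TN (95% interval -0.49 to 0.38, adjusted p = 0.999, edgeR) and 0.40 in cold (95% interval -0.04 to 0.83, adjusted p = 1.00, edgeR). In cold it was 0.25 without cold HIF2α AKO replicate 1, a muscle-rich library. In the floxed Hif2a allele that the study used, exon 2 is the part that Cre removes. In the annotation this exon holds 191 of the 5516 bases of the Epas1 transcript with 16 exons, or 3.46%, so that counts over the whole gene do not show whether it was lost. The study itself reported lower Hif2a mRNA in iWAT of HIF2α AKO mice by RT-qPCR. The genotypes are given as labelled.

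None of the other members differed by genotype past the threshold either. Between HIF2α AKO and WT, 0 of 10 members were called in cold, where 0.00653% of genes were called, and 0 of 10 at TN, where the share was also 0.00653%, and DESeq2 and limma voom called none. At an unadjusted p under 0.05, 1 member passed in cold against 2.95% of all genes, and 0 members passed at TN against 2.91% of all genes. Over both temperatures, 0 members were called (0.00653% of genes), with 0 at an unadjusted p under 0.05 (3.64% of genes). With the thresholds of the study, which ask for a p under 0.15 before adjustment and a change of over 0.2 on the log2 scale, 3 members passed in cold, Epas1, Egln1 and Hif3a, against 8.98% of all genes.

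The member that passed unadjusted in cold was Hif3a, at 4.36 ± 2.88 CPM (SD, n = 3) in cold WT and 2.17 ± 0.343 in cold HIF2α AKO. The groups overlapped, and the log2 fold change of -1.001 (95% interval -1.83 to -0.17) was -0.33 without cold WT replicate 1. Egln1 was higher in every cold HIF2α AKO library than in every cold WT library, with a log2 fold change of 0.41 (95% interval -0.01 to 0.83, adjusted p = 1.00, edgeR). Without cold HIF2α AKO replicate 1, it was 0.20. At TN, Egln2 was higher in every HIF2α AKO library, with a log2 fold change of 0.21 (95% interval -0.00 to 0.42, adjusted p = 0.999, edgeR). For Hif1a, the interval in cold ran from -0.11 to 0.47, for Egln3 from -0.72 to 0.38 and for Arnt2 from -0.72 to 0.94, so that differences of these sizes were not resolved with 3 mice a group. For Arnt, Vhl and Hif1an in cold, the intervals ended at 0.14, 0.16 and 0.22 at most on the upper side and at -0.19, -0.23 and -0.12 on the lower side.

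Whether the cold response itself differed between genotypes was tested as the difference of the log2 fold changes. It was called for 0 of 10 members and for 0% of all genes by edgeR, and DESeq2 and limma voom also called no member. At an unadjusted p under 0.05, 1 member passed, Hif3a, against 2.14% of all genes. Its difference was -1.30 (95% interval -2.46 to -0.14), and -0.63 without cold WT replicate 1. For Epas1 the difference was 0.45 (95% interval -0.17 to 1.06), for Egln1 0.37 (-0.23 to 0.97), for Egln2 -0.23 (-0.52 to 0.07) and for Egln3 -0.52 (-1.31 to 0.27). For Hif1a it was 0.15 (-0.26 to 0.56). The larger fold change of Epas1, Egln1 and Hif1a in HIF2α AKO, and of Egln2 and Egln3 in WT, was thus not separated from the spread between mice. The comparison of cold with TN in WT and the comparison of genotypes in cold share the cold WT libraries.

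Of all pairs of members, Epas1 and Egln1 followed each other most closely from library to library. Over the 12 libraries, Pearson's r of log2 CPM was 0.98 between Epas1 and Egln1, and 0.87 after the group means were taken out. It was 0.87 between Epas1 and Egln3 (0.71 within groups) and 0.78 between Epas1 and Hif1a (0.07 within groups). Between Arnt and Arnt2 it was -0.87. Over the 12 libraries, Hif1an and Hif3a followed none of the others closely, with r between -0.24 and 0.32 for Hif1an and between -0.48 and 0.31 for Hif3a. Within groups, however, r was 0.82 between Hif3a and Egln2, -0.74 between Hif3a and Hif1a and 0.52 between Hif3a and Hif1an. The muscle-rich libraries, cold HIF2α AKO replicate 1 and TN HIF2α AKO replicate 2, were the highest of their groups for both Epas1 and Egln1. No r was computed without them. All these values of r are descriptions over libraries that share the 4 groups and the scaling. By the same measure over 13888 genes with a mean of at least 1 CPM, the 5 genes most like Epas1 were Acsf3, an acyl-CoA synthetase of mitochondria (r = 0.99), BC004004, Mrpl42, 2310061I04Rik and Rnf26, all between 0.989 and 0.992. The 5 most like Egln3 were Slc39a9, Ebp, Gcdh, Metap1 and 1700123O20Rik, between 0.975 and 0.993. Among the genes most like Hif1a were Col27a1, Slain2, Ppp6c and Sbk1, between 0.910 and 0.958.

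The 5 most like Hif3a were Fkbp5 (r = 0.91, and 0.88 within groups), Slc45a4, Wfdc1, Ddah1 and Dscr3, with r of 0.833 or more. Fkbp5, a textbook glucocorticoid-induced gene, was at 171 CPM in cold WT replicate 1, the library in which Hif3a was at 7.61 CPM, and at 53.6 to 107 CPM in the other 11 libraries. Fkbp5 was picked for its likeness to Hif3a over these same libraries, so the shared high value in that mouse is part of the selection. A cause was not tested.

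**Figure D4:**
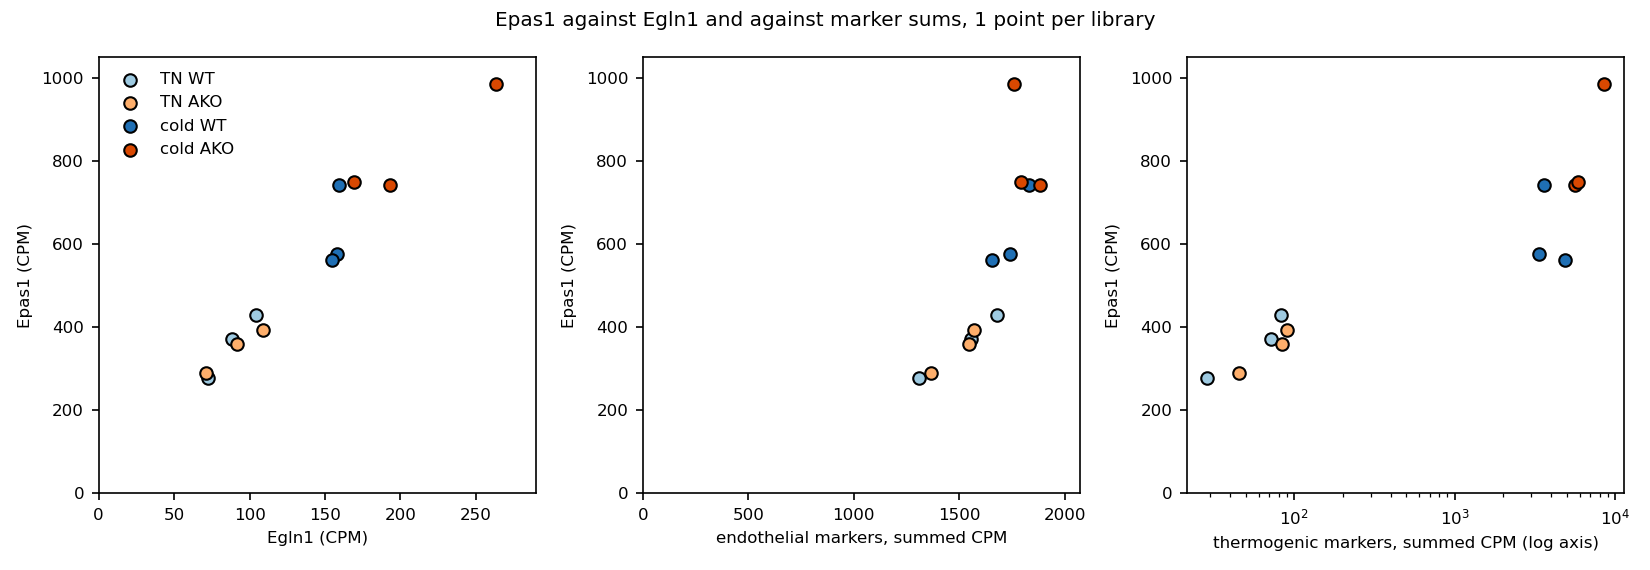
Epas1 in CPM (vertical axis) against Egln1 in CPM, against the summed CPM of 13 endothelial markers and against the summed CPM of 8 thermogenic markers (log axis), with 1 point for each of the 12 libraries coloured by group. Epas1 follows Egln1 over all libraries, and in cold it lies higher for its endothelial sum than at TN.

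Because the tissue holds several cell types, marker sums are given beside the rise of Epas1, and in bulk RNA more cells of a type and more RNA per cell cannot be told apart. The 13 endothelial markers summed to 1517 ± 188 CPM (SD, n = 3) in TN WT and 1741 ± 86.6 in cold WT, and to 1495 ± 111 in TN HIF2α AKO and 1815 ± 63.9 in cold HIF2α AKO. Over both genotypes, 5 of the 13 were called higher and 0 lower, with a median log2 fold change of 0.15. Per 100 CPM of these markers, Epas1 was at 23.6 ± 2.22 CPM in TN WT and 35.9 ± 4.11 in cold WT, and at 23.2 ± 1.98 in TN HIF2α AKO and 45.7 ± 8.95 in cold HIF2α AKO, so that the cold and TN ranges were apart in both genotypes. The 8 thermogenic markers were all called higher in cold over both genotypes and in HIF2α AKO, and 7 of them in WT. Their sum was 60.8 ± 28.5 CPM in TN WT, 73.2 ± 24.4 in TN HIF2α AKO, 3947 ± 806 in cold WT and 6697 ± 1638 in cold HIF2α AKO. The 9 markers of white or general adipocytes summed to 18884 ± 6175 CPM in TN WT and 36771 ± 11730.1 in cold WT, and to 22359 ± 6207 in TN HIF2α AKO and 33082.5 ± 2313 in cold HIF2α AKO, with 6 called higher and 0 lower over both genotypes. Macrophage markers (3 of 13 lower), progenitor markers (5 of 8 lower) and lymphocyte markers (6 of 8 lower) had no member called higher in cold. None of the 12 skeletal muscle markers was called, and 1 of 7 epithelial markers was called lower. Of the endothelial markers, Kdr, Flt1, Tek, Cdh5 and Vwf are also among the genes credited to HIF2α that are counted below. No ratio of Epas1 to the adipocyte sums or the other sums was made, so the endothelial ratio does not show a rise relative to them. From TN to cold in WT, mean Epas1 went from 360.2 to 627 CPM and the white or general adipocyte sum from 18884 to 36771 CPM. In HIF2α AKO, mean Epas1 went from 348 to 826 CPM and that sum from 22359 to 33082.5 CPM. The part of the cell types in the values of the members was not tested.

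Around the members, the other genes of the pathway were counted from 3 lists. Of 25 partners and cofactors, 22 were tested, and between cold and TN over both genotypes 6 rose and 4 fell (edgeR), near the 24.8% and 24% of all genes, with a median log2 fold change of -0.13 against -0.05 for all genes. Among those that rose were Tceb1 (0.58, elongin C), Tceb2 (0.48, elongin B) and Cul2 (0.45, a cullin scaffold), which encode subunits of the VHL ligase. Rbx1, its RING subunit, is also on the list and was not among the 4 genes that rose most. Clock, a circadian relative of Arnt, rose by 0.39. Npas2, another circadian relative, fell by 1.03. Both coactivators that HIF1AN keeps from binding fell slightly, Ep300 by 0.30 and Crebbp by 0.22. Under total counts, the shift of all genes given above applies to these values too.

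Cited2, which competes with HIF for these coactivators, fell by 0.68 (SE 0.05, edgeR adjusted p = 1.34e-05). It was at 53.8 to 61.9 CPM in TN WT, 38.5 to 40.5 in TN HIF2α AKO, 32.0 to 33.0 in cold WT and 26.1 to 28.7 in cold HIF2α AKO, so that none of the 4 groups overlapped another. Chosen after its values were seen, its difference between genotypes was -0.52 at TN (95% interval -0.68 to -0.35, unadjusted p = 2.68e-05, adjusted p = 0.205, edgeR) and -0.25 in cold (95% interval -0.42 to -0.09, adjusted p = 1.00, edgeR), neither past the threshold.

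Genes that hypoxia is known to induce through HIFs were counted next for cold against TN over both genotypes. Of 45 such genes, 44 were tested, 23 rose and 5 fell, where 24.8% of all genes were called higher and 24% lower, and the median log2 fold change was 0.36. Those that rose most were enzymes of glycolysis, Hk2 (2.05), Pgam1 (1.89), Pgk1 (1.76) and Aldoa (1.59), all called in WT and in HIF2α AKO separately. Pgk1 lay between 84.7 and 109 CPM in TN WT and between 278 and 314 CPM in cold WT, and between 89.4 and 117 CPM in TN HIF2α AKO and between 309 and 495 CPM in cold HIF2α AKO. In the opposite direction, Car9, a carbonic anhydrase commonly used as a hypoxia marker, fell by 0.60, and Aldoc fell by 0.94, Ankrd37 by 0.73 and Kdm3a, a histone demethylase, by 0.40. Kdm3a was called in both genotypes separately and Car9 and Ankrd37 in neither. Aldoc was at -1.66 in WT (edgeR adjusted p = 0.0253) and -0.21 in HIF2α AKO (edgeR adjusted p = 0.740). Car9, Aldoc and Ankrd37 were low throughout, with group means between 1.35 and 4.27 CPM. Eno1 was listed with a total of 2 counts in the 12 libraries and could not be tested.

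Of 19 genes credited more to HIF2α than to HIF1α, 17 were tested. Of these 17, 6 rose and 3 fell, against 24.8% of all genes called higher and 24% lower, with a median log2 fold change of 0.07. Whether these counts depart from the shares of all genes was not tested. Plin2, a lipid droplet coat protein, rose by 2.01, Apln, a vascular peptide, by 1.73 and Slc11a2, an iron transporter, by 0.52. Tgfa fell by 0.64 and Ccnd1, a cyclin, by 0.39, and Cited2, which is also on this list, was the third. Between HIF2α AKO and WT, none of the genes tested on the 3 lists was called at either temperature or over both (edgeR). At an unadjusted p under 0.05 in cold, against 2.95% of all genes, 3 partners and cofactors were lower, 3 hypoxia-induced genes were higher and 1 lower, and 1 gene credited to HIF2α was lower. At TN, against 2.91% of all genes, these counts were 2 lower, then 2 higher and 1 lower, then 1 higher and 1 lower. The lists are no independent evidence, since they were written with results of these libraries known.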

How the data were processed

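Read counts per gene from iWAT of 12 mice were used, with groups taken from the labels. The authors deposited whole counts without normalization, which they made with Trim Galore 0.4.4, STAR 2.6.1d on GRCm38/mm10 and HTSeq 0.13.5, and they tested with DESeq2 1.30.0. The annotation and the strand setting are not given in the sources used here. The table of all samples and the per-sample tables held identical counts for 12 of 12 libraries. The 5 tallies outside genes, between 21.9 and 27.0% of reads, were left out.

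One quasi-likelihood model of the 4 groups was fitted with edgeR 4.0.16 (R 4.3.3), with TMM factors and filterByExpr (minimum count 10, minimum total 15), with Benjamini-Hochberg adjustment over 15306 genes and a limit of 0.05. Intervals are 95% intervals of the fit. Log2 CPM used a prior count of 2. The p-values rest on the spread between mice within groups, estimated for each gene over all 4 groups together and moderated across genes. A library that stands out in its group therefore also enters the tests of the other groups. The alternatives were DESeq2 1.42.0, limma 3.58.1 (voom, also with sample quality weights), other scalings and filters, the libraries of a contrast alone, a replicate block and each library left out. Leaving out both muscle-rich libraries and DESeq2 on the libraries of a contrast were added after the data were seen. Exon lengths and positions came from GENCODE vM21 (GRCm38). The fit was also run on simulated data, with far fewer changed genes than were called here between cold and TN. That run does not test the scaling under a wide shift of genes.

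All members were named. Of each pathway list, at most 4 genes that rose and 4 that fell, the most changed in cold (adjusted p under 0.05, mean of at least 1 CPM), and for 4 members the 5 genes with the most similar profile, were named as well. Of these, 2 genes are not reported here. The members, lists and rules were chosen with earlier results of these data known.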

Additional observations from a re-analysis of the deposited data

How the results depend on the processing

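The rise of Epas1, Egln1 and Egln3 over both genotypes was called under all 22 alternatives. The number of members called in WT (4) became 7 at an unadjusted p under 0.05, and it ranged from 2 to 6 when each library was left out. Over all genes, 3259 were called in WT with all libraries and 1381 to 3722 when each was left out. In HIF2α AKO the number of members called (5, all higher) was 3 with total counts only, 2 of them higher and Vhl (-0.43) lower. Hif1a (0.19), Egln2 (0.024) and Egln3 (0.53) were not called under that scaling. Without both muscle-rich libraries, 2 members were called (1514 of all genes). When each library was left out, 2 to 3 were called (1613 to 4155 of all genes, against 4138 with all libraries). Between genotypes in cold (0 called) the number of members was 1 unadjusted and 3 with the thresholds of the study, and for the difference of the cold response (0 called) it was 1 unadjusted.

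Of the same-numbered pairs of libraries from different groups, 5 of 18 had a correlation of their deviations over 0.1 (range -0.43 to 0.39). Pairs with different numbers were not summarized beside them, so these values cannot show whether the replicate numbers pair the mice. With the replicate block, 4 members were called in WT, 4 in HIF2α AKO, where Egln2 (0.29) was lost, 6 over both genotypes, where Arnt2 (-0.69) was lost, and 0 between genotypes.

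Of the log2 fold changes that changed sign, 1 was called, that of Arnt over both genotypes with total counts only, and the cause was not tested. For cold against TN, Arnt was -0.026 in WT, -0.023 in HIF2α AKO and -0.024 over both genotypes with upper-quartile factors, and -0.19, -0.20 and -0.20 with total counts only. Hif3a over both genotypes was -0.018 with upper-quartile factors, -0.18 with total counts only and -0.011 with limma voom. Hif1an in HIF2α AKO was 0.0020 with DESeq2 and with its size factors, 0.0016 with DESeq2 on those libraries alone and 0.0012 without a filter, and with voom quality weights it was 0.023 in WT and 0.0066 over both. For HIF2α AKO against WT in cold, Egln2 was 0.0068 with DESeq2 and with its size factors and 0.016 without a filter, Arnt was 0.0091 without a filter and 0.00021 with voom quality weights, and Arnt2 was -0.010 with those weights. At TN, upper-quartile factors gave -0.018 for Hif1a, -0.028 for Arnt and -0.0070 for Egln1, and total counts gave -0.038, -0.044 and -0.024. Arnt at TN was -0.0047 without a filter, Hif1a was -0.036 and Vhl 0.0082 with voom quality weights, and without both muscle-rich libraries Arnt was -0.00041 and Egln1 -0.11.

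With each library left out, cold against TN ranged for Hif1an from -0.063 to 0.020 in WT, from -0.050 to 0.036 in HIF2α AKO and from -0.041 to 0.012 over both, and for Hif3a over both from -0.24 to 0.25. Between genotypes at TN, Epas1 ranged from -0.21 to 0.096, Hif1a from -0.074 to 0.086, Arnt from -0.0039 to 0.037, Egln1 from -0.11 to 0.18 and Vhl from -0.14 to 0.018. In cold, Arnt ranged from -0.054 to 0.015, Arnt2 from -0.19 to 0.51, Egln2 from -0.057 to 0.075, Egln3 from -0.36 to 0.19 and Vhl from -0.063 to 0.0059. With exon lengths of the longest transcript, the share of Epas1 among the α subunits was 73.2% in TN WT, 72.3% in TN HIF2α AKO, 79.5% in cold WT and 82.0% in cold HIF2α AKO. Depth limits Hif3a and Arnt2 most, with 40 to 254 counts in a library.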
